A study of Mus musculus with 4 samples.

Results

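The transcribed regions described here are assembled transcript units that lie just outside annotated genes in C2C12 cells, a mouse skeletal muscle line grown as myoblasts (MB) and fused into myotubes (MT) by serum withdrawal. A unit is an entry of the total RNA-seq tables that Cufflinks assembled from reads and that carries an identifier (XLOC) in place of a gene symbol. A flanking unit was one whose locus overlapped no locus of a named gene and lay less than 5000 bp from the nearest one. Of 36780 assembled units, 6467 met this rule. Another 20431 overlapped a named locus, 8319 lay 5 to 100 kb away and 1563 lay farther off. The choice among units used position only and no expression value. A unit is listed, however, only where reads could be assembled, and 6380 of the 6467 had at least 10 fragments in a library.

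The study sequenced total RNA depleted of ribosomal RNA from C2C12 MB, taken 24 h before the switch to differentiation medium (DM -24 h), and from C2C12 MT kept in DM for 72 h. It also sequenced polyA RNA of C2C12 MT at DM 48 h that had received si-hnRNPL, a small interfering RNA against the RNA-binding protein hnRNPL, or the control si-NC. With 1 library per condition, no difference could be checked against replicates, and p-values were not computed. All 4 libraries came from the same line, an immortal culture and not muscle tissue, in which some cells stay unfused. A lower level in such bulk RNA can come from fewer cells of a type or from less RNA per cell, and these cannot be told apart. The myoblast markers Myod1, Myf5 and Des stood at 36.6, 13.8 and 98.7 FPKM in MB and at 65.9, 13.6 and 195 FPKM in MT, so they mark the lineage in both and do not set MB apart. The myotube markers Myog, Myh3, Ckm, Acta1 and Mylpf ranged from 0.00961 to 12.1 FPKM in MB and from 66.3 to 528 FPKM in MT. Of 12 markers of fat, nerve, blood and endothelial cells, Adipoq, Plin1, Cidec and Hbb-b1 were listed at 0 in both libraries. The macrophage marker Cd68 was at 1.13 FPKM in MB and 0.774 in MT, and the other 7 were at most at 0.0220 and 0.114.

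Transcription reaches beyond the borders of annotated genes in several ways. At many promoters, above all those rich in CpG dinucleotides, polymerase II also starts on the opposite strand and makes short-lived RNA that runs away from the gene. Past the polyadenylation site, polymerase keeps going until the transcript end behind it is degraded, and enhancers, primary microRNA transcripts and unannotated exons add further RNA near genes. RNA without a poly(A) tail is kept in a library made by ribosomal RNA depletion and is mostly lost in a polyA library.

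The sequence of the gap between unit and gene shows what the closest units border on. The gaps before Myod1, which encodes the founding transcription factor of the muscle lineage, and before Cnksr3, which encodes a scaffold protein, are shown because both genes had a unit close by that rose in MT. The Cnksr3 unit was chosen after its values were seen. Both are given in mm9 on the plus strand with CG in capitals, and the gene starts after the last base. The first is chr7:53631646-53631843 (198 bases, 9 CG) and the second chr10:3134220-3134303 (84 bases, 9 CG).
Myod1 gap: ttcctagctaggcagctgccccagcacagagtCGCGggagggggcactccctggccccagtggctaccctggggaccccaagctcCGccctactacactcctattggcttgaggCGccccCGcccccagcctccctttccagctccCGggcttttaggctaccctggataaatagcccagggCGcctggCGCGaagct
Cnksr3 gap: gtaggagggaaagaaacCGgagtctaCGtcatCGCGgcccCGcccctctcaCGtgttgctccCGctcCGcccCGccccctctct
GC content was 66.7% in the Myod1 gap and 67.9% in the Cnksr3 gap. The Myod1 gap also held 1 copy of CAGCTG, a form of the E-box that MyoD binds.

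A second set of sequences comes from the units themselves. The units before Eif3b (a translation initiation factor subunit) and before Macrod1 (an ADP-ribose hydrolase) had large falls, and the unit before Casq2, the calsequestrin that stores calcium in the sarcoplasmic reticulum, rose from 0. They are shown as mm9 plus strand, at chr5:140893648-140893885, chr19:7127776-7128013 and chr3:101886058-101886347. Capitals mark bases covered by a run of 16 bases that occurs at least 100 times in the genome.
XLOC_048029 (Eif3b): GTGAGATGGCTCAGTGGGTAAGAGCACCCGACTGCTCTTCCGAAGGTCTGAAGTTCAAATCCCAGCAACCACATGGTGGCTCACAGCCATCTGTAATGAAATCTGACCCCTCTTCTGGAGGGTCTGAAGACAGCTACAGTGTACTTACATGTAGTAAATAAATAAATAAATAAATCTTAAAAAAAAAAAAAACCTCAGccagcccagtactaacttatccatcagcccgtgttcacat
XLOC_032474 (Macrod1): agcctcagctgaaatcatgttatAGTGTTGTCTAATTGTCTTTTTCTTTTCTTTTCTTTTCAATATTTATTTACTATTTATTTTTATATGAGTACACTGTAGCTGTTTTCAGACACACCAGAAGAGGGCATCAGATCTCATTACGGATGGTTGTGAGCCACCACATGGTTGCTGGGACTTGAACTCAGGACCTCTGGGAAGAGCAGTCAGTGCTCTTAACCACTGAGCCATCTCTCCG
XLOC_039669 (Casq2): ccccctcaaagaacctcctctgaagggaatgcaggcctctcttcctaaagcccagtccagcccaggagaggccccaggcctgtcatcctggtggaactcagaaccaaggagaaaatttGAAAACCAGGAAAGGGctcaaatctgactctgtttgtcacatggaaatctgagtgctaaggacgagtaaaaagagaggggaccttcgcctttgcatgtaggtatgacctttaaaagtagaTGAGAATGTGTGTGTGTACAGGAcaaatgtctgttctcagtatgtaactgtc
In the Eif3b and Macrod1 units 198 and 215 of 238 bases were capitals, and the repeated part of the Eif3b unit reads as a B2 element, a family of short interspersed repeats with many copies in the mouse genome. That name rests on general knowledge of the family, since no repeat annotation was used. In the Casq2 unit 39 of 290 bases were capitals.

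Flanking units were short and weak. Their length ran from 203 to 233927 bp with a median of 1022 bp. The median level was 0.169 FPKM in MB and 0.256 FPKM in MT, and 442 of the 6467 reached 1 FPKM in either library. From the 95% intervals that Cufflinks gave each value, the median unit rested on 12 fragments in MB and 17.5 in MT. All flanking units together held 0.273% of the 59960174 fragments implied for MB and 0.471% of the 54442424 for MT. Where the nearest gene had at least 1 FPKM, the unit's level was a median of 0.869% of the gene's level in MB (5463 units) and 1.82% in MT (5595 units). Only 13 units in MB and 12 in MT were above such a gene.

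The 6467 units lay beside 4478 genes, of which 3049 had 1 unit and 1429 had 2 or more. For 1103 units (17.1%) a second named locus lay less than 5000 bp away on the other side, so the nearest gene is only one of the candidates. In the GENCODE annotation of mm9, which is separate from the one behind the tables, 5240 units (81.0%) overlapped no gene and 526 (8.13%) overlapped an exon. Of the latter, 279 touched an exon of a protein-coding gene, 135 of a lincRNA, 78 of a processed transcript and 36 of a pseudogene. In 466 units (7.21%) the annotation ran the nearest gene's own span across the unit.

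The strand of the nearest gene was found for 5913 units, of which 3371 lay before the gene start and 2542 past the gene end. The tables give no strand for the units, so whether a unit runs toward or away from its gene is not known. On the start side the units crowded against the gene, with 1124 of 3371 (33.3%) closer than 250 bp, 417 at 250 to 500 bp and only 58 in the last 250 bp of the window. On the end side units were sparse within 2000 bp of the gene. On each side of that distance the count per 250 bp went down, from 100 to 34 below it and from 244 to 119 beyond. Just 416 of 2542 units lay within 2000 bp of the gene end and 2126 (83.6%) beyond it, and the count per 500 bp went from 81 below 2000 bp to 469 above it. The plot of distances shows that step as a sharp edge at one distance. No source used here names a distance of this size in the assembly or the filtering.

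**Figure D1:**
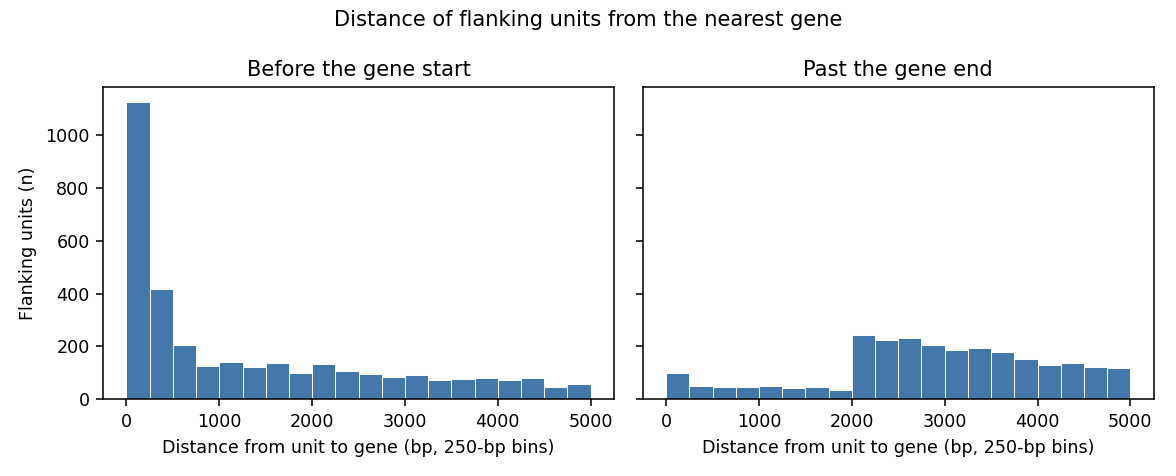
Flanking units counted in 250-bp bins of distance (horizontal axis, bp) before the start (left) and past the end (right) of the nearest gene. The first bin on the left holds 1124 units, and on the right the count goes from 34 in the bin below 2000 bp to 244 in the bin above it.

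The end of a unit that faced a nearby gene start was rich in CpG. In a 300-bp window centred on that end, units less than 250 bp before a start had a median of 7.67 CpG per 100 bases and a GC content of 61.3%. The window held at least 3 CpG per 100 bases in 1051 of these 1124 units (93.5%). The median was 4 between 250 and 1000 bp (748 units) and 1 from 1000 bp on (1499 units). Past gene ends it was 1 for the 416 units within 2000 bp and 0.667 for the 2126 beyond, the same median as in 8303 units 5 to 100 kb from genes. Windows at the closest units reach into the gene's own promoter, so these values describe the place and not the unit alone.

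**Figure D2:**
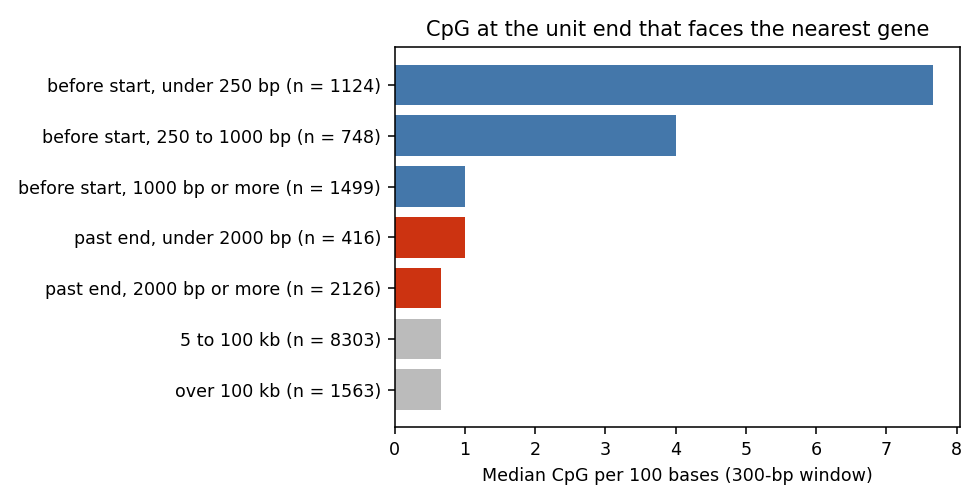
Median CpG per 100 bases (horizontal axis) in a 300-bp window on the unit end that faces the nearest gene, by position and distance, with the number of units in each class. The class nearest to gene starts stands at 7.67 and all classes past gene ends or beyond 5 kb at 1 or less.

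Motifs inside the units were searched on both strands in 300-base windows at the centre of the 6322 units long enough. CAGCTG, the E-box form preferred by MyoD, was in 13.8% of flanking units against 13.5% of all 32671 assembled units. CACACA, the kind of repeat that hnRNPL binds, was in 28.3% against 29.4%. AATAAA, the core of the polyadenylation signal, was in 33.8% against 33.1%. These shares put the flanking units beside all other units, and the match itself says nothing of a factor being bound.

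Between MB and MT the change of a unit was taken as log2((FPKM + 1) MT / (FPKM + 1) MB), and a unit was said to rise or fall where that value reached 0.58 in size. By this rule 248 flanking units (3.83%) rose and 190 (2.94%) fell. Over all entries of the tables the shares were 15% and 7.37%, over all assembled units 19.8% and 3.09%, and over named genes 7.81% and 13.7%. The share that rose was below that of all units and the share that fell close to it. Centring on named genes of at least 1 FPKM in both libraries, whose median change was -0.23, gave 828 rises (12.8%) and 106 falls (1.64%), so the split between rises and falls depends on the scaling. The same centring was not applied to the other classes, so the centred shares have no background beside them. The Cufflinks intervals of the change left out 0 for 243 of the 248 and 187 of the 190. The pseudocount of 1 is larger than most of these levels, so the rule can call few weak units, and units inside genes (median 0.421 FPKM in MB and 0.881 in MT) pass it more easily.

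Without a pseudocount the flanking units stood nearer to the other classes. Among 3098 flanking units with at least 10 fragments in each library, the median of log2(MT / MB) was 0.46, and 832 (26.9%) at least doubled while 189 (6.10%) at least halved. All assembled units at that depth gave 32.5% and 5.12%, all entries 23.6% and 9.79%, and named genes 12.4% and 15.7%. The same median was 0.64 for units inside genes, 0.58 for units 5 to 100 kb off and -0.18 for named genes. Flanking units thus had higher relative levels in MT than genes did, as had the other classes of assembled unit. In all, 4712 of 6467 units (72.9%) had a higher value in MT and 1755 a lower one. With values above 0.05 FPKM counted as present, 5117 units were in both libraries, 1087 in MT only and 263 in MB only. No unit was absent from both, since reads are needed for a unit to be listed, while named genes are listed with or without them. Among named genes 7604 of 24850 were at 0 in MB and 6918 in MT, against 252 and 56 of the flanking units. The part of this in the contrast with genes was not tested.

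The 50 units just inside the limit of the rule (4935 to 4999 bp) had a median of 0.122 FPKM in MB and 0.234 in MT and a median change of 0.15. The 50 just outside (5000 to 5054 bp) had medians of 0.187 and 0.224 FPKM and a change of 0.12.

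The largest rise was past the end of Plin2, the gene of a lipid droplet coat protein. XLOC_044924 (chr4:86299703-86299975, 2493 bp past the end) was at 0.211 FPKM (95% interval 0 to 0.51) in MB and at 9.86 FPKM (7.89 to 11.8) in MT, a change of 3.16. Plin2 itself did not rise, with 89.1 FPKM in MB and 66.1 in MT. The GENCODE span of Plin2 covers this unit.

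Other large rises went with their gene. XLOC_029363, 3589 bp past the end of the scavenger receptor gene Colec12, went from 0.467 to 9.41 FPKM while Colec12 went from 27.1 to 141 FPKM. XLOC_061137, 2091 bp past the end of the transcription factor gene Maf, went from 0 to 2.94 FPKM (1.69 to 4.20) while Maf went from 1.23 to 16.8. XLOC_033253, 3205 bp past the end of Gfra1, the receptor of the growth factor GDNF, went from 0.153 to 2.93 FPKM while Gfra1 went from 4.51 to 31.5. In all 3 pairs the intervals of the unit in MB and MT do not overlap.

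Fndc1, which encodes a protein with fibronectin type III domains, had 4 units and rose from 2.06 to 24.3 FPKM. Before its start XLOC_027613 went from 0.138 to 2.79 FPKM, XLOC_027614 from 0.150 to 3.52 and XLOC_027615 from 0.190 to 3.10. These units followed each other at 114, 1162 and 2455 bp from the listed start. The GENCODE span of Fndc1 runs across all 3, so in that annotation they lie within the gene. The unit past its end, XLOC_027590, stood at 0.0132 and 0.441 FPKM, below the limit for a rise.

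The remaining large rises lay in other settings. XLOC_011791, 239 bp before Fdxr, the mitochondrial ferredoxin reductase, went from 0.313 to 3.97 FPKM, and it overlaps exons of Fads6, a fatty acid desaturase family gene, in GENCODE. XLOC_018693, 225 bp before the zinc finger gene Zmym2, went from 0.385 to 3.10 FPKM on 3 and 26 fragments. XLOC_045897, 3313 bp past the pseudogene Rps19-ps3, went from 0 to 2.01 FPKM, with 78.3% of its bases in repeated 16-mers. Among the 248 units that rose, 40 (16.1%) lay in the GENCODE span of their own nearest gene and 167 overlapped no gene there.

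**Figure D3:**
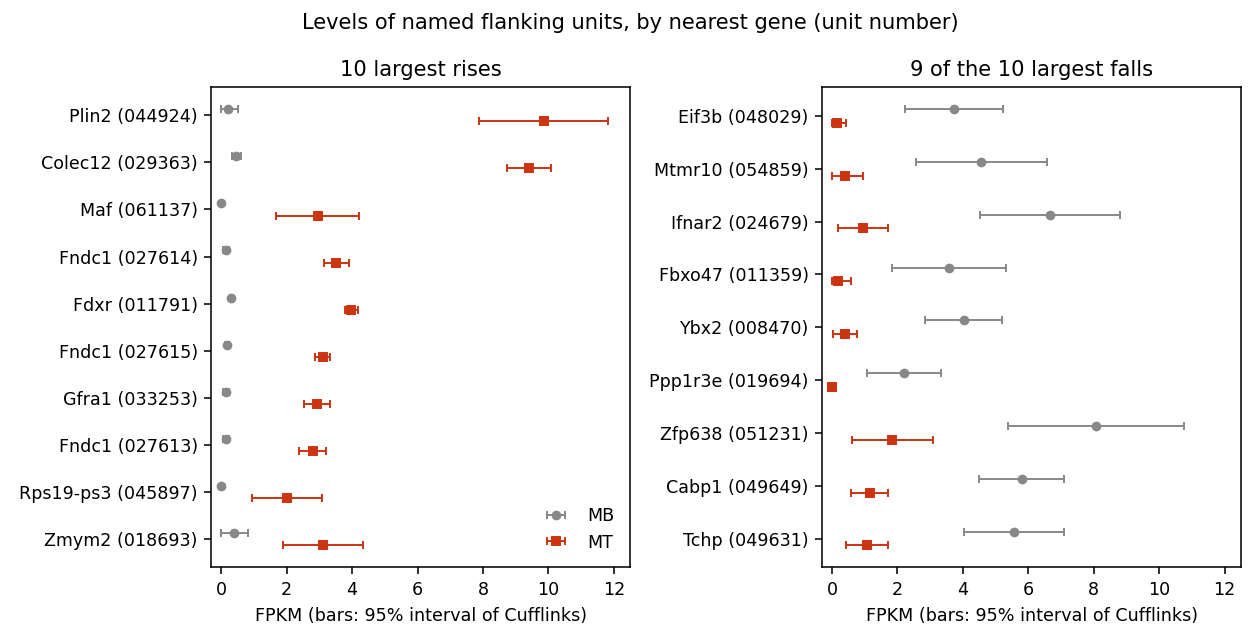
FPKM (horizontal axis) of the 10 units with the largest rise (left) and 9 of the 10 with the largest fall (right) in MB (grey circles) and MT (red squares), with bars for the 95% interval of Cufflinks and each unit named by its nearest gene. The Plin2 and Colec12 units reach 9.86 and 9.41 FPKM in MT, and the falling units stand between 2.19 and 8.08 FPKM in MB.

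The largest falls were a different kind of unit. XLOC_048029, 1373 bp before Eif3b, went from 3.74 FPKM (2.24 to 5.23) to 0.138 (0 to 0.415), a change of -2.06. Its sequence, given above, is mostly repeat, and the fall rests on 25 fragments in MB and 1 in MT. Eif3b itself fell from 64.6 to 27.9 FPKM and remained far above the unit.

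A further 8 of the 10 largest falls were XLOC_054859 by Mtmr10, XLOC_024679 by Ifnar2, XLOC_011359 by Fbxo47, XLOC_008470 by Ybx2, XLOC_019694 by Ppp1r3e, XLOC_051231 by Zfp638, XLOC_049649 by Cabp1 and XLOC_049631 by Tchp. Their changes ran from -1.99 to -1.66. Together with the Eif3b unit these 9 were between 208 and 327 bp long, and from 64.9% to 100% of their bases lay in repeated 16-mers. The genes next to them did not move as a group, since Ifnar2 (an interferon receptor chain) went from 17.1 to 22.0 FPKM and Mtmr10 (a myotubularin-related gene) from 13.4 to 6.81.

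The same held for the falling units as a whole. Over 50% of the bases lay in repeated 16-mers in 109 of the 190 units that fell (57.4%), in 26 of the 248 that rose (10.5%) and in 537 of all 6467 (8.30%). Units under 400 bp made up 64.7% of those that fell, 29.0% of those that rose and 5.29% of all. The same fragments give a shorter unit a higher FPKM, so the rule calls short units more easily. Median levels in MB were 0.911 FPKM under 400 bp and 0.161 FPKM from 400 bp on, at 11.9 and 12 fragments. Of the 342 short units 72 rose and 123 fell, against 176 and 67 of the 6125 longer ones. The rule's part in these shares was not tested. AATAAA was in 55.3% of the 123 falling units long enough for a 300-base window and in 32.4% of the 210 rising ones. The 16-mer found in the most falling units was AGCCACCATGTGGTTG, counted on both strands, whose other strand, CAACCACATGGTGGCT, stands in capitals in the Eif3b unit. It was in 83 of 190 falling units (43.7%), 14 of 248 rising ones (5.65%) and 458 of the 6029 that did neither (7.60%). Because it was picked from the falling units, its share there and the falls among units that hold it were favoured by that choice. No 16-mer picked from the rising units was set beside it.

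Length and repeat went together. Most of the bases lay in repeated 16-mers in 130 of the 342 units under 400 bp and in 407 of the 6125 longer ones. Of the 80 units under 400 bp with the 16-mer picked from the falling units, 64 fell and 1 rose. Their median level went from 1.60 to 0.355 FPKM. Of the 475 longer units with this 16-mer, 19 fell and 13 rose. The choice of the 16-mer favoured falls in these counts. In all, 123 units under 400 bp fell and 72 rose, with or without this 16-mer. The same 16-mer was in 2.33% of units inside genes and in 5.87% of those 5 to 100 kb away. The median change of the genes beside the 80 short units was -0.15. A short unit built of a common repeat can hold reads that also match other copies, and how such reads were counted is not given in the sources used here; its part in these falls was not tested.

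**Figure D4:**
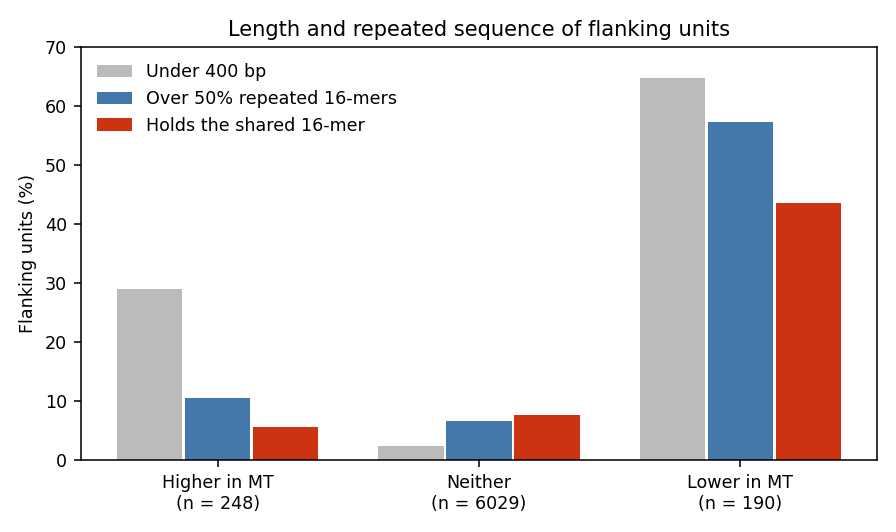
Share of flanking units (vertical axis, %) that are under 400 bp long (grey), have over 50% of their bases in repeated 16-mers (blue) or hold the 16-mer most common in falling units (red), for units that rose, did neither or fell. The 3 shares are 64.7%, 57.4% and 43.7% in falling units and 29.0%, 10.5% and 5.65% in rising ones. The 16-mer was picked from the falling units, and the rule calls short units more easily in both directions.

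The units with the highest levels were few and mixed. XLOC_063497, 4170 bp before Hyou1, a chaperone gene of the endoplasmic reticulum, had the top value in MB, 51.6 FPKM (44.8 to 58.4), and 28.1 FPKM in MT; it overlaps the pseudogene Gm10080, so its reads may be shared with a parent gene. XLOC_004721, 759 bp before Gtf3c6 (a subunit of transcription factor IIIC), was at 48.5 and 38.0 FPKM and covers a U3 small nucleolar RNA, which guides ribosomal RNA processing. XLOC_010921 by 2610507B11Rik stood at 31.6 and 18.4 FPKM with 78.2% of its bases in repeated 16-mers.

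Those 3 had lower values in MT, and so had XLOC_016546 by the zinc finger gene Zfp184, at 27.0 and 18.7 FPKM. XLOC_005066 by Gucd1 (a guanylyl cyclase domain gene) was the one of the top units that rose, from 11.5 FPKM (8.14 to 14.8) to 27.8 FPKM (22.8 to 32.7). It overlaps the GENCODE gene 1110038D17Rik, and 63.7% of its bases lay in repeated 16-mers. All of these except XLOC_004721 were 203 to 216 bp long.

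Some of the best measured flanking units lay beside microRNA loci. A total of 37 units lay beside 22 microRNA loci, of which 4 rose (10.8%) and 6 fell (16.2%), against 3.83% and 2.94% of all flanking units. Of the 6 falls 5 were units of a single locus, Mir31. With centring the counts were 8 and 2. The microRNA entries were themselves listed at 0 for all 37 units in MB and for 36 in MT. Mature microRNAs are cut from long primary transcripts and are shorter than the fragments that such libraries keep. The mature sequences of 4 loci whose units moved are given from RefSeq (GRCm38.p6), with the seed, bases 2 to 8, in capitals. No 2 of the 4 seeds are alike.
miR-31-5p: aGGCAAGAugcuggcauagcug
miR-23a-3p: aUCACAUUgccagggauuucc
let-7c-5p: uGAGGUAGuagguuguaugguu
miR-181a-5p: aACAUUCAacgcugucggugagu
The loci Mir31, Mirlet7c-1 and Mir181a-1 were chosen after their values were seen, and Mir23a was named for its level.

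Before Mir31 stood 5 units in a row, 980 to 4772 bp from the locus (chr4:88557547-88561760 in all). They were XLOC_044952, XLOC_044953, XLOC_044954, XLOC_044955 and XLOC_044956, at 5.71, 7.81, 7.15, 7.31 and 7.86 FPKM in MB. In MT they were at 3.07, 2.93, 4.08, 4.09 and 3.78 FPKM. All 5 fell, by 0.68 to 1.16 on the log2 scale, and none had more than 8.72% of its bases in repeated 16-mers, unlike the short repeated units above. With centring all 5 stayed below 0 and 2 passed the limit.

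The unit before Mir23a was the best measured of all flanking units named here. XLOC_058839 (chr8:86724760-86730391, 5632 bp long, 2025 bp before the locus) went from 24.9 FPKM (24.5 to 25.4) to 16.1 FPKM (15.7 to 16.4), a change of -0.60 on 11305 and 7639 fragments. In the genome Mir23a heads a cluster with Mir27a and Mir24-2 that is made as 1 transcript. With levels centred on the named genes the change of XLOC_058839 no longer reaches the limit for a fall.

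Near 2 other microRNA loci the units rose. XLOC_024617, 4890 bp past Mirlet7c-1 and 16351 bp long, went from 0.308 FPKM (0.278 to 0.338) to 1.70 FPKM (1.63 to 1.77). XLOC_001356, 1086 bp before Mir181a-1, went from 0.258 to 1.48 FPKM. On the other side of that cluster XLOC_001358 and XLOC_001359, past the end of Mir181b-1, went from 0.118 to 0.700 and from 0.0998 to 0.804 FPKM. All 3 units of the Mir181 cluster had higher levels in MT, outside the intervals of MB.

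The gene lists that follow are read against 3.83% of rises and 2.94% of falls over all flanking units, or 12.8% and 1.64% with centring. Counts of units with a higher value in MT are read against 72.9% of all flanking units. The median change of all flanking units, 0.15, lies above the centre of -0.23, so most of them lie above that centre. Lists of 16 to 43 units have few calls to compare with these shares.

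Units beside the regulators of myogenesis were counted over 33 units and 15 genes of the list. XLOC_056764, 198 bp before Myod1 (chr7:53630081-53631645), was the 1 unit of the list that rose, and with centring there were 7. It went from 0.386 FPKM (0.271 to 0.502) to 2.51 FPKM (2.23 to 2.80), while Myod1 went from 36.6 to 65.9 FPKM, so the unit grew more than its gene on the log2 scale (1.34 against 0.83). Of the 33 units, 26 had a higher value in MT and 7 a lower one. The 7 lower ones all lay beside Id1, Id2 and Id3, the inhibitors that hold back MyoD in growing cells, a grouping noticed after the values were seen. With centring 3 of these 7 stayed below 0. Of the Id2 units, XLOC_012513 lies within XLOC_014008.

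XLOC_003565, 2554 bp before Myog (myogenin, which drives terminal differentiation), stood at 0.0103 and 0.304 FPKM beside 0.695 and 251 FPKM for the gene. The unit overlaps a U6 small nuclear RNA in GENCODE. Pax7, the satellite cell factor, had 6 units, at 0.0891 to 0.207 FPKM in MB and 0.216 to 0.713 in MT, while Pax7 itself was at 4.85 and 7.42 FPKM. Among these units XLOC_043762 and XLOC_043763 lie within XLOC_045753. The weak unit XLOC_039105 by Mbnl1, a splicing regulator, was at 0.904 and 1.27 FPKM with overlapping intervals.

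Beside genes of the contractile apparatus, the flanking units had low levels in both libraries. The 16 units of 11 such genes had values up to 0.281 FPKM in MB and 0.492 in MT. With a pseudocount of 1 a unit at 0.492 FPKM stays under the limit even from 0, so no unit of this list could be called a rise, and with centring 3 were. Of the 11 genes 9 rose, and the median change of the genes over the units was 4.35. Of the units, 14 had a higher value in MT. All 16 lay above the centre of the named genes, as most flanking units did. XLOC_008383 past the end of Myh3, the embryonic myosin heavy chain, stood at 0 in MB and 0.492 FPKM (0.374 to 0.609) in MT, with Myh3 at 0.101 and 121 FPKM. The 2 units with lower values, XLOC_052211 and XLOC_052212, both lay past the end of Lmod2, an actin nucleator of the sarcomere.

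Membrane and calcium handling genes gave 24 units at 13 genes, with 1 rise (6 with centring) and 20 higher values in MT. XLOC_039669, 4030 bp before Casq2, was listed at 0 in MB and at 1.04 FPKM (0.438 to 1.63) in MT, and Casq2 went from 0.261 to 115 FPKM. The myoglobin gene Mb, for the oxygen carrier of muscle, had 4 units past its end that were listed at 0 in MB. In MT these were at 0.407 FPKM for XLOC_022727, 0.297 for XLOC_022728, 0.278 for XLOC_022729 and 0.314 for XLOC_022730. The last 3 lie within the 12035 bp of the first, and Mb itself went from 0.0896 to 93.8 FPKM.

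Beside cell cycle genes most flanking units had lower values in MT. All 19 genes of the list with a unit fell, with a median change of -2.28 over the 29 units. Of these units, 23 had a lower value in MT and 2 passed the limit for a fall, of which neither did with centring. XLOC_029587, 235 bp before the phosphatase gene Cdc25c, went from 0.704 to 0.0316 FPKM and overlaps a GENCODE lincRNA, and XLOC_029948 past the end of Lmnb1 (lamin B1) went from 0.831 to 0.154 FPKM. Before Ccnd1, the cyclin D1 gene, XLOC_055981 stood at 0.473 and 0.0222 FPKM and XLOC_057991, which overlaps it, at 0.503 and 0.0368. The units' median change was -0.20, and centring turns it to 0.03, with 15 units above the centre and 14 below.

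Matrix and secreted factor genes gave 29 units at 18 genes, of which 3 rose and 1 fell (4 and 0 with centring). Of the 3 rises 2 were at Lox. XLOC_064076, 2284 bp past the end of the collagen gene Col12a1, went from 0.448 to 1.20 FPKM with Col12a1 at 56.6 and 153. XLOC_054275 by Plaur, the urokinase receptor gene, was the one that fell, from 0.711 to 0.0337 FPKM, a call lost with centring. XLOC_061445 before Mmp13 and XLOC_040115 before Cyr61 were among the strongest of this list at 3.71 and 0.968 FPKM in MB, and they hardly moved, at 3.69 and 1.06 in MT. Cyr61 itself went from 156 to 69.3 FPKM.

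At the lysyl oxidase gene Lox all 6 units lay before the start and did not act alike. XLOC_029898 and XLOC_029899, 3652 and 4206 bp out, rose from 0.0992 to 0.703 and from 0 to 0.525 FPKM. XLOC_030891 and XLOC_030892, 132 and 4917 bp out, stood at 0.452 and 0.326 FPKM in MB against 0.134 and 0.0343 in MT. XLOC_029895 lies within XLOC_030891 and stood at 0.425 and 0.581 FPKM, where the interval of the change includes 0. XLOC_029896, 1135 bp out, stood at 0.146 and 0.658 FPKM. Lox was at 75.0 and 56.3 FPKM, so units on the same side of a single gene differed in direction.

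Immediate early and growth factor genes gave 43 units at 23 genes. One of them rose, XLOC_026626 before the phosphatase gene Dusp1, from 0.343 FPKM (0.181 to 0.505) to 1.09 FPKM (0.807 to 1.37), and none fell. XLOC_042727 before Jun stood at 1.33 and 1.73 FPKM, and XLOC_019122 before Spry2 at 1.13 and 0.441, where the interval of the change includes 0. The Jun unit overlaps exons of BC042782 and of a ribosomal RNA in GENCODE. A unit past the end of Spry2, XLOC_020248, stood at 0.0950 and 0.343 FPKM, and the gene went from 21.1 to 48.4 FPKM. Values were higher in MT for 21 units and lower for 22, where 72.9% of all flanking units were higher. With centring 4 rose and 35 of the 43 lay above the median of the named genes, as most flanking units did.

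Long noncoding RNA genes had 18 units at 9 genes. Malat1, a nuclear RNA that gathers in splicing speckles, had 7 flanking units, the most of any gene, and went from 161 to 628 FPKM. XLOC_032418, 2905 bp past its end, fell from 1.83 FPKM (1.08 to 2.57) to 0.719 (0.264 to 1.17), with 86.4% of its bases in repeated 16-mers, and the call was lost with centring. The 6 units before its start were at 0.117 to 0.616 FPKM in MB and 0.201 to 0.848 in MT, none past the limit. XLOC_009857 by Tug1 was the list's 1 rise, from 0.227 to 0.933 FPKM, and with centring there were 4. C330006A16Rik, outside this list but also with 6 units, went from 24.9 to 16.8 FPKM, while all 6 units had higher values in MT, 0.167 to 0.357 FPKM against 0.0584 to 0.257.

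Where both unit and gene passed the limit, they mostly moved together. This was the case for 176 pairs, of which 139 (79.0%) shared a direction. In 75 of these both rose, in 64 both fell, in 19 the unit rose and the gene fell and in 18 the unit fell and the gene rose. Units 5 to 100 kb from genes shared a direction in 297 of 344 such pairs (86.3%), and units over 100 kb off in 44 of 59 (74.6%). The agreement was thus not particular to flanking units. Over all 6467 pairs, Spearman's rank correlation between unit and gene change was 0.34, and it was 0.35 over the 920 pairs with at least 30 fragments of the unit in each library. For all units 5 to 100 kb off it was 0.33, and for those over 100 kb off 0.11. Pairs share the same libraries and some share a gene, so these values describe the tables. On the log2 scale 66.5% of units changed more upward than their gene, by a median difference of 0.24. The pseudocount shrinks the changes of units more than those of genes, since units have lower levels.

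By position, the rank correlation was 0.28 for units before the start and 0.43 past the end, but 0.35 and 0.38 with at least 30 fragments in each library. Within 2000 bp of the gene end it was 0.11 (416 units), and from 2000 to 5000 bp past the end it was 0.50 (2126 units), so the correlation was higher on the far side of the step in the distance plot. Before the start it was 0.30 within 2000 bp and 0.24 beyond. With at least 30 fragments in each library the difference past the end was smaller, with 0.24 over 59 units and 0.42 over 316. The genes beside the near and the far units past the end also differed, with median levels of 4.70 and 14.5 FPKM in MB. No test of the difference in correlation was made. Where a gene had 2 or more units that passed the limit, these shared a direction at 37 of 42 genes, 32 with rises and 5 with falls.

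**Figure D5:**
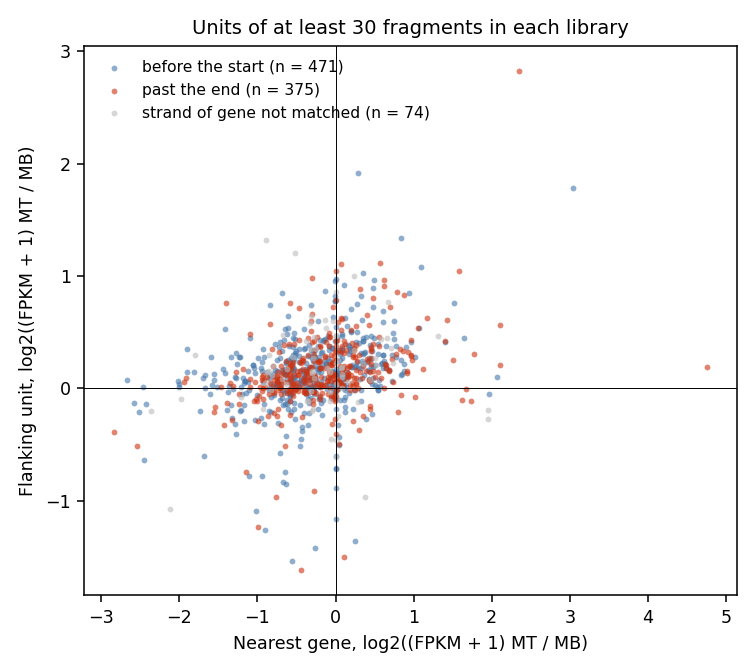
Change of each flanking unit with at least 30 fragments in both libraries (vertical axis) against the change of its nearest gene (horizontal axis), both as log2((FPKM + 1) MT / MB), for 471 units before the start (blue), 375 past the end (red) and 74 with no matched gene strand (grey). The rank correlation over all 920 is 0.35. Units lie closer to 0 than genes on this scale, where the pseudocount of 1 shrinks the changes of low levels most.

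Among the 5 pairs per direction that moved apart most, units that fell beside a gene that rose were short and repeated, as XLOC_032474 by the ADP-ribose hydrolase gene Macrod1 (4.19 to 0.692 FPKM, 90.3% repeated, gene 2.09 to 25.2) and XLOC_053708 by the complement gene C1s1 (2.00 to 0.415 FPKM, 94.0% repeated, gene 0.574 to 25.9). XLOC_054462 by Zfp14, XLOC_056449 by Zfp260 and XLOC_011782 by Ttyh2 were the other 3, with 71.8% to 78.8% of their bases repeated.

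Units that rose beside a gene that fell were 391 to 5802 bp long, against 222 to 376 bp for those that fell. XLOC_052202, 125 bp from Lsm8, a subunit of the spliceosomal U6 particle, went from 1.32 FPKM (1.21 to 1.42) to 4.77 FPKM (4.57 to 4.97) while Lsm8 went from 61.4 to 32.7. This unit overlaps the GENCODE lincRNA Gm16854, and 72.0% of its bases were repeated, within the range of the falling units. XLOC_047511, 4829 bp past Noc4l (ribosome biogenesis), was listed at 0 in MB and at 1.08 FPKM in MT on 344 fragments while Noc4l went from 25.5 to 9.65. XLOC_050628 past Podxl, a sialomucin gene, went from 0.685 to 1.86 FPKM and lies in the GENCODE span of Mkln1, and XLOC_002719 before Bzw1 went from 0.298 to 1.20 FPKM. XLOC_000004, 68 bp before the mitochondrial ribosomal protein gene Mrpl15, went from 0.313 to 1.23 FPKM while Mrpl15 went from 22.5 to 11.4.

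The polyA tables of MT held 0 assembled units, so flanking units could not be followed there. Hnrnpl, the targeted gene, was at 95.1 FPKM (92.7 to 97.5) in si-NC and 85.9 FPKM (83.1 to 88.7) in the library labelled si-hnRNPL, a small difference. Of the nearest genes, 4398 were listed there. Between si-NC and si-hnRNPL 35 of these were higher (0.796%) and 20 lower (0.455%) by the same limit. The shares over all entries of the polyA tables were 0.688% and 0.416%. The shares for genes with a flanking unit were close to this background.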

How the data were processed

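Total RNA-seq of MB and MT (1 library each) was the main material, and polyA RNA-seq of si-hnRNPL and si-NC MT the second. The authors kept reads of 36 bp or more, aligned these with TopHat 2.0.13 (mm9) and deposited FPKM values with 95% intervals from Cufflinks 2.1.1. Per the labels, the total RNA libraries were strand specific. Distances were taken between loci as listed, and strands and annotation from GENCODE vM1. Changes were log2((FPKM + 1) ratio) with a limit of 0.58. Implied fragments were (2 x FPKM / (upper bound - FPKM)) squared, a whole number within 0.01 for 94.2% (MB) and 94.3% (MT) of flanking units below 200 fragments, and they cover counting error within a library only. Repeated sequence was a base in a 16-mer with at least 100 copies in mm9. Scripts ran in Python 3.11.15 with pandas 2.3.3 and scipy 1.17.1 and were tested on simulated data. Named were the 10 largest rises and 10 largest falls with at least 10 fragments, list members of at least 1 FPKM (up to 6 per list), the 5 highest per library, the 5 strongest opposed pairs per direction and the 3 genes with the most units (of 4 genes tied at 6 units, the first 2 in alphabetical order). Others named were chosen after their values were seen. The members and lists were chosen with earlier results of these data known. Of the units that the naming rule selects, 1 is not reported here.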

Additional observations from a re-analysis of the deposited data

How the results depend on the processing

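No paired analysis was possible because each condition has 1 library. The count of units that rose (248, 3.83%) became 3275 (50.6%) with a pseudocount of 0.1 and 3743 (57.9%) with 0.01. It was 15 of the 126 units of at least 1 FPKM in both libraries (11.9%) and 828 (12.8%) with centring on the named genes. With a distance limit of 1000, 2000 and 10000 bp it was 66 of 2281 (2.89%), 97 of 3029 (3.2%) and 409 of 9026 (4.53%). At a limit of 1 it was 47 (0.727%). The count that fell (190, 2.94%) became 1003 (15.5%), 1187 (18.4%), 34 (27%), 106 (1.64%), 60 (2.63%), 95 (3.14%), 286 (3.17%) and 67 (1.04%) under the same settings. It was 81 (1.37%) among 5930 units with at most 50% of their bases repeated and 67 (1.09%) among 6125 units of 400 bp or longer, settings chosen after seeing the data. The median change (0.15) was 0.60 and 0.85 with the smaller pseudocounts, -0.029 among units of at least 1 FPKM in both libraries, where the sign turned, 0.38 with centring, and 0.13, 0.14 and 0.16 at the 3 distances. For the median of -0.029, over 126 units, the interval was -0.25 to 0.049, so its sign is not settled. The share of pairs in the same direction (79.0%) was 70.3% and 68.8% with the smaller pseudocounts and 86.5% with centring. It was 88.9% with both levels at least 1 FPKM, over only 18 pairs, and 85.2% under 1000 bp, over 54 pairs. The median difference from the gene (0.24) was 0.63 and 0.88 with the smaller pseudocounts, 0.29, 0.26 and 0.21 at the 3 distances, and 0.31 against the nearest gene of at least 1 FPKM. Most units lie under 1 FPKM, where a smaller pseudocount gives a larger change for the same levels. With a wider distance limit the number of units grew, and the share of rises and the median change were higher too. The causes of these shifts and of the others were not tested. The rank correlation kept its sign under all settings run, from 0.26 to 0.39. A unit of 12 fragments cannot show a small change.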
